A study of Mus musculus with 5 samples.

Results

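The genes considered here are 9 mouse genes through which cells sense the gut environment: Ahr, Ahrr, Tiparp, Vdr, Rara, Rxra, Nr3c1, Nr1h2 and Ffar2. They were chosen by name among 21924 annotated protein-coding genes, and all peaks of the acetylated histone mark H3K27ac that overlapped an annotated gene span (GENCODE M21, mm10) extended 20 kb on each side were assigned to that gene. This gave 156 of 124158 peaks. H3K27ac marks active promoters and enhancers and was measured by CUT&Tag, in which an antibody directs a transposase to the mark so that the DNA around it can be sequenced. CD3+CD4+Foxp3-YFP+ regulatory T (Treg) cells of C57BL/6 mice at 2 weeks of age were sorted from the large intestine at steady state, and each library pooled 60000 cells from 3 to 5 littermate mice. The study used both sexes unless otherwise noted, and the sex of the mice in each library is not given. The Ctrl mice carried Foxp3Cre-YFP with 1 floxed and 1 intact Setd2 allele (Setd2 f/+), and the KO mice carried Foxp3Cre-YFP with 2 floxed alleles (Setd2 f/f), so that Cre was present in both genotypes and the Ctrl was heterozygous in Treg cells. The Cre recombinase is driven by Foxp3 and therefore acts in Foxp3-expressing cells of every organ. There were 2 H3K27ac libraries per genotype, Ctrl 1, Ctrl 2, KO 1 and KO 2. An IgG library served the peak calling and was not analysed here.

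Treg cells of the large intestine live beside food and microbial products and read them largely through ligand-activated transcription factors. The aryl hydrocarbon receptor (AHR) binds indoles and other aromatic ligands from diet and microbiota, pairs with ARNT and induces Ahrr and Tiparp, whose products restrain it. Retinoic acid acts through the retinoic acid receptors and vitamin D through VDR, both as partners of the retinoid X receptors, while NR3C1 binds glucocorticoids, NR1H2 (liver X receptor beta) binds oxysterols and FFAR2 is a cell surface receptor for short-chain fatty acids. Retinoic acid and AHR ligands are both known to shape the gut homing and differentiation of Treg cells.

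Sequences around the annotated transcription starts are shown for the repressor and the feedback enzyme of AHR and for Rara and Nr1h2, the 2 further members whose window met the highest peak. Each runs 5′ to 3′ on the strand of the gene, from 250 bases before to 50 bases after a start (RefSeq, GRCm38.p6), and 7 of the 9 members had an entry. Capitals mark the AHR-ARNT core GCGTG or, on the other strand, CACGC. The Ahrr window is chr13:74292282-74292581, minus strand. The Tiparp window is chr3:65528197-65528496, plus strand. The Rara window is chr11:98937446-98937745, plus strand, at a start inside the gene. The Nr1h2 window is chr7:44553916-44554215, minus strand, and it held no match.
Ahrr: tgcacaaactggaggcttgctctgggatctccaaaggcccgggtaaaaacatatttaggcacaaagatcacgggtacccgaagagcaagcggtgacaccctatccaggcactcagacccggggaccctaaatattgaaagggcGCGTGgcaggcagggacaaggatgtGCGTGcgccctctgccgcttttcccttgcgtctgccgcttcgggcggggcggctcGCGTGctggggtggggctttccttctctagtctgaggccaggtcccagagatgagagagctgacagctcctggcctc
Tiparp: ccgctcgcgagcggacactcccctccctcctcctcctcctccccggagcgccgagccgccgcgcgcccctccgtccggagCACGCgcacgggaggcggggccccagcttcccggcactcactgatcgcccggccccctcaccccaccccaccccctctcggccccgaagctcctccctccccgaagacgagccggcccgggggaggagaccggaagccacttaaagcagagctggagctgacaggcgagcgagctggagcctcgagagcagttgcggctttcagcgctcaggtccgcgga
Rara: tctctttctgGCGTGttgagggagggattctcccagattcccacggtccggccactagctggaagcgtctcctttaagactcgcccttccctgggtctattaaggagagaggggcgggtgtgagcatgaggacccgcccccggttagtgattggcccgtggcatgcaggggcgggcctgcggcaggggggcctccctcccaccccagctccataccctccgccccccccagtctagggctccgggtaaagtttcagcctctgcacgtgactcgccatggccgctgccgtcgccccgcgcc
Nr1h2: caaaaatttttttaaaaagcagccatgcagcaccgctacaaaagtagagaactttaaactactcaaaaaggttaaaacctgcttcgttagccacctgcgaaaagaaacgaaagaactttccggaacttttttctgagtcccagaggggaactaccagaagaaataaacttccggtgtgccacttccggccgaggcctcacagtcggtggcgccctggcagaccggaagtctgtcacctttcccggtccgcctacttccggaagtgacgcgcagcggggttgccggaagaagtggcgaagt
The core occurred 3 times in the Ahrr window and 1 time each in the Tiparp and Rara windows shown. Rara has other windows, and the match depends on the start taken. The window from 98939461 held 1 match, and those from 98937468 and 98964622 held 0. Of all 32851 promoter windows of the same length, 32.4% held the core on either strand. The nuclear receptor half-site AGGTCA was in 16.3% of all windows, the glucocorticoid half-site TGTTCT in 19.0% and a direct repeat of AGGTCA with a spacer of 1 to 5 bases, which contains that half-site, in 0.0791%. None of these 3 motifs was found in the windows shown. Among members' windows not shown, AGGTCA was in the Rxra window from 27709042 (2 matches), the Rara window from 98964622 (1 match) and some Ffar2 windows. TGTTCT was in some Ffar2 windows as well. The Ahrr window, with the most matches, overlapped no H3K27ac peak, while the Tiparp window overlapped a peak with a mean of 25.4 CPM (counts scaled to library size) over the 4 libraries and the Rara window one with a mean of 358 CPM. The Nr1h2 window lay in the peak over its start. A match describes letters only and does not show binding.

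The libraries held 2395002 to 4712473 counts in peaks, with totals that overlapped between the genotypes. CPM denotes the count of a peak or locus relative to the library total over tested peaks after TMM (trimmed mean of M-values) scaling. Marker levels took whole peaks with any part within 3 kb of a start, per kb of that window. Over 6 T cell and Treg genes (Foxp3, Il2ra, Ctla4, Ikzf2, Cd3e, Cd4) the sum was 102 to 117 CPM per kb in Ctrl. In KO it was 118 to 145 CPM per kb, with no gene at 0. The sums were 2.18 to 4.06 for B cell markers (1 of 3 at 0 in all libraries), 6.39 to 9.05 for myeloid markers (3 of 4 at 0), 0.951 to 1.4 for epithelial markers (2 of 4 at 0), 1.72 to 3.21 for innate lymphoid and NK markers (2 of 3 at 0) and 6.26 to 8.62 for stromal and endothelial markers (1 of 3 at 0). The T cell and the myeloid sums were both higher in both KO libraries than in both Ctrl libraries, the latter through Cd68 alone. Of the T cell genes, Il2ra, Ctla4 and Cd3e were higher in both KO libraries, while Foxp3, Ikzf2 and Cd4 overlapped between the genotypes. The part of these sums in the results was not tested. The Setd2 locus itself had 130, 179, 101 and 138 CPM in Ctrl 1, Ctrl 2, KO 1 and KO 2, which overlapped. H3K27ac at this locus does not show whether the floxed exon was deleted.

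All 9 loci carried H3K27ac in every library, but at levels from strongly marked to sparse. Per kb of window, Rara was the highest at 7.69 CPM per kb on average, above 98.9% of protein-coding genes, followed by Rxra at 4.07 (93.81st percentile), Ahrr at 2.83 (88.1), Nr1h2 at 2.62 (86.71), Ahr at 2.06 (81.89), Vdr at 1.48 (74.27), Nr3c1 at 1.002 (64.46), Tiparp at 0.772 (58.23) and Ffar2 at 0.114 (34.06). The 4 libraries of neighbours in this order overlapped from Rara down to Vdr and between Nr3c1 and Tiparp. They did not overlap between Vdr and Nr3c1 or between Tiparp and Ffar2. By this measure Rara and Rxra thus stood at the top, while the AHR genes ranked 3rd (Ahrr), 5th (Ahr) and 8th (Tiparp). Counting per kb of peak instead leaves out the bare parts of a window. Rara then remained first at 19.1 CPM per kb and Ffar2 last at 6.48. Tiparp moved from 8th to 2nd (14.4) and Nr3c1 from 7th to 3rd (13.6). Rxra fell from 2nd to 6th (10.4) and Nr1h2 from 4th to 8th (9.53). By the CPM of peaks within 3 kb of a start alone, the percentiles were 99.93 for Rara, 96.97 for Nr3c1, 96.08 for Ahr and 88.77 for Nr1h2. They were 78.77 for Tiparp, 72.68 for Rxra, 59.42 for Ahrr, 54.72 for Vdr and 20.94 for Ffar2, which had no such peak.

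**Figure D1:**
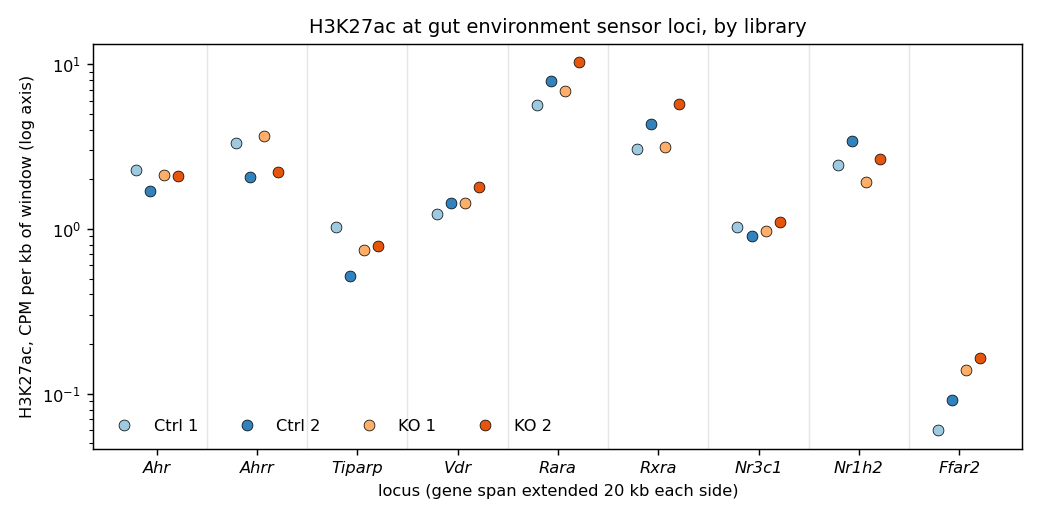
H3K27ac level of each sensor locus, in CPM per kb of the gene span extended 20 kb each side (log axis), with 1 point for each of the 4 libraries. Rara lies highest, between 5.67 and 10.3 CPM per kb, and Ffar2 lowest, between 0.0598 and 0.164.

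The distribution of counts within the loci differed between genes of the same pathway. Promoter peaks were those with any part within 3 kb of an annotated start of the gene. They were counted whole, so wide ones reached further than 3 kb. Promoter peaks held 67.7 to 71.1% of the counts of Ahr over the 4 libraries. They held 70.6 to 80.3% of those of Tiparp, but only 2.83 to 6.34% of those of Ahrr. Similarly, they held 72.8 to 75.9% of the counts of Rara and 5.23 to 6.98% of those of Rxra, where 90.0 to 93.0% lay in the rest of the gene. At Nr3c1 the promoter share was 79.6 to 88.1%, at Nr1h2 47.2 to 62.3% and at Vdr 6.13 to 6.93%. The share was higher in both Ctrl libraries at Tiparp (79.7 and 80.3%, against 72.6 and 70.6% in KO) and higher in both KO libraries at Nr3c1 (85.7 and 88.1%, against 84.4 and 79.6% in Ctrl) and, narrowly, at Vdr. At Ahr, Ahrr, Rara, Rxra and Nr1h2 the libraries of the genotypes overlapped. The difference in shares was not tested. How often the genotypes separate in this share over all loci is not given here, so these separations are not a result about the members.

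**Figure D2:**
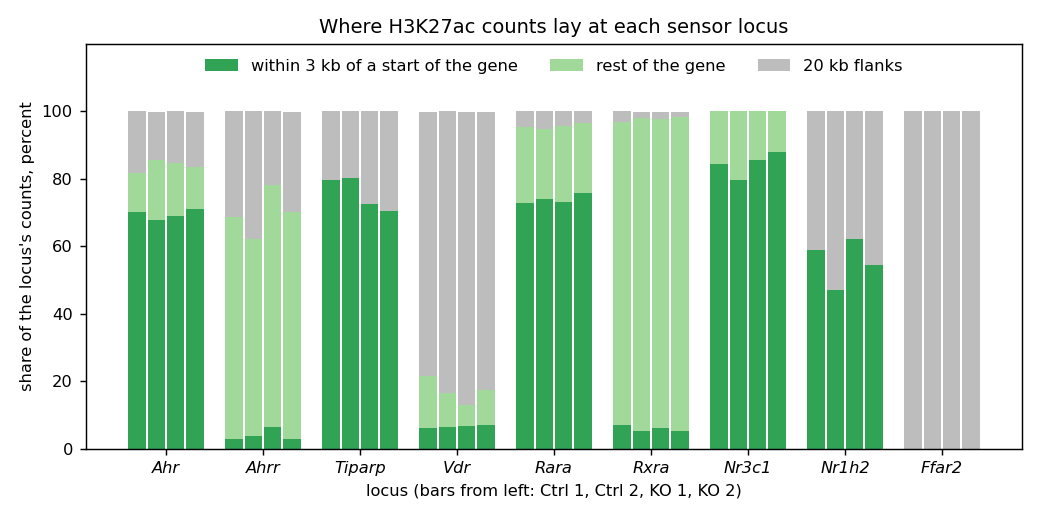
Share of the counts of each sensor locus, in percent, by class of peak, with 1 bar per library. Peaks with any part within 3 kb of a start of the gene were counted whole as promoter peaks. The others lay in the rest of the gene or in the 20 kb flanks. Promoter peaks held most counts at Ahr, Tiparp, Rara and Nr3c1, the gene body held 90.0 to 93.0% at Rxra, and the flanks held all counts of Ffar2.

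Ahr, the receptor itself (chromosome 12, 35497974 to 35535038, minus strand), had 10 peaks and a locus level of 176 and 132 CPM in Ctrl and 164 and 162 CPM in KO. Both KO libraries fell between the Ctrl libraries. Its highest peak (35527358 to 35533401) was intronic, began 1.64 kb inside the gene and held 86.4 and 67.0 CPM in Ctrl and 74.5 and 82.4 CPM in KO. The peak over the start (35533754 to 35535583) had 37.6 and 22.3 CPM in Ctrl and 38.8 and 32.6 CPM in KO, which overlapped too. The smallest p among its 7 tested peaks belonged to an intronic peak about 11.0 kb inside the gene (35523715 to 35524386), with 4.07 and 4.17 CPM in Ctrl against 8.57 and 5.75 CPM in KO (log2 fold change 0.78, SE 0.68, unadjusted p = 0.256, edgeR quasi-likelihood test). The mean over the whole window was 154 ± 31.5 CPM for Ctrl and 163 ± 1.56 CPM for KO (SD, n = 2), a log2 fold change of 0.08 (SE 0.24). Outside the windows described here, the loci whose 4 libraries deviated most like those of Ahr were Slc22a23, Pa2g4 and Pop7, with Euclidean distances of 0.0206, 0.0279 and 0.0284 on the log2 CPM scale among 16065 loci.

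Ahrr, the AHR repressor that competes with AHR for ARNT (chromosome 13, 74211118 to 74292331, minus strand), had 39 peaks, of which 25 lay in the gene away from its starts. The locus level was 403 and 250 CPM in Ctrl and 446 and 271 CPM in KO. The first library of each genotype was high and the second low, by 0.69 in Ctrl and 0.72 in KO on the log2 scale, and this spread was larger than the log2 fold change of 0.14 (SE 0.31). Its strongest peak was intronic, about 31.2 kb inside the gene (74259425 to 74262877), and had 103 and 68.8 CPM in Ctrl and 104 and 76.9 CPM in KO. The 4 promoter peaks were weak, each between 0.719 and 8.94 CPM in every library, and overlapped between genotypes where they could be tested. Among its 28 tested peaks, 2 had an unadjusted p under 0.05. An intronic peak about 27.5 kb inside the gene (74264457 to 74265260) held 7 and 7 counts in Ctrl against 32 and 25 in KO libraries, or 3.17 and 2.08 CPM against 11.9 and 5.99 CPM, and the genotypes did not overlap (log2 fold change 1.77, SE 0.71, unadjusted p = 0.0128). A peak that began 9.05 kb upstream of the nearest start (74301376 to 74302618) went the other way, with 18.6 and 13.4 CPM in Ctrl against 5.22 and 6.95 CPM in KO (log2 fold change -1.36, SE 0.51, unadjusted p = 0.00788). Neither passed the edgeR quasi-likelihood test after Benjamini-Hochberg adjustment over all peaks (adjusted p = 0.998 for both). The window also covers the start of the neighbour Exoc3, and peaks within 3 kb of that start held 11.1 to 19.1% of the counts, with 52.5, 44.0, 48.1 and 47.4 CPM in Ctrl 1, Ctrl 2, KO 1 and KO 2 in the larger of them.

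Tiparp, an ADP-ribosyltransferase induced by AHR that modifies the receptor in turn (chromosome 3, 65528410 to 65555518, plus strand), had 5 peaks and no peak in the gene beyond its promoter. The locus level was 69.2 and 34.8 CPM in Ctrl and 50.3 and 53.0 CPM in KO. The KO libraries were nearly equal and lay between the Ctrl libraries, which differed by 0.98 on the log2 scale, the widest gap between replicates among the 9 members. The peak over the start (65527698 to 65528811) had 32.1 and 21.1 CPM in Ctrl and 22.4 and 26.1 CPM in KO, and the next one (65529034 to 65529714) had 23.1 and 6.85 CPM in Ctrl and 14.2 and 11.3 CPM in KO. Neither separated the genotypes. The smallest p was that of a downstream peak about 41.6 kb from the start (65569767 to 65570317), with 3.17 and 1.49 CPM in Ctrl and 3.73 and 5.51 CPM in KO (log2 fold change 1.03, SE 0.93, unadjusted p = 0.269).

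Rara, the retinoic acid receptor alpha (chromosome 11, 98927818 to 98974942, plus strand), was the most strongly marked of the 9 genes. A single promoter peak of 10473 bp (98936092 to 98946564) covered starts inside the gene and was wider than 99.86% of all peaks, whose median width was 477 bp. This peak held 251 and 371 CPM in Ctrl and 322 and 489 CPM in KO, or 554 to 2040 counts, and 50.8 to 54.6% of the counts of the locus. KO 2 was the highest and Ctrl 1 the lowest library, while Ctrl 2 lay above KO 1, so that the genotypes overlapped (log2 fold change 0.38, SE 0.24, unadjusted p = 0.112). A further wide promoter peak over a start nearer the end of the gene (98958642 to 98964511) showed the same order, with 84.6 and 113 CPM in Ctrl and 94.6 and 159 CPM in KO. In contrast, the peak near the annotated 5′ end of the gene (98925246 to 98926889) had only 12.7 and 12.5 CPM in Ctrl and 15.7 and 13.9 CPM in KO. The remaining 2 promoter peaks each had 2.08 to 13.2 CPM. Taking all 17 peaks, the locus level was 494 and 688 CPM in Ctrl and 602 and 896 CPM in KO, with a log2 fold change of 0.34 (SE 0.26). The smallest p was that of a peak 9.02 kb upstream of the nearest start of Rara (98917794 to 98918794), which overlapped the neighbour gene Cdc6. It had 8.14 and 14.3 CPM in Ctrl and 4.47 and 7.43 CPM in KO. Both KO libraries were lower there, against the direction of the locus (log2 fold change -0.90, SE 0.55, unadjusted p = 0.101). The window reached the start of Cdc6, a replication licensing gene, where 1 of 2 peaks had 6.79 and 7.14 CPM in Ctrl and 12.3 and 12.2 CPM in KO (log2 fold change 0.81, SE 0.53, unadjusted p = 0.128), but the peaks at that start gave at most 2.29% of the counts.

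Rxra, the retinoid X receptor alpha, a partner of RARA, VDR and NR1H2 (chromosome 2, 27676440 to 27762957, plus strand), had 44 peaks, the most of any member, and 35 of them lay in the gene away from its starts. The highest was intronic, about 14.5 kb inside the gene (27686864 to 27694965, 8102 bp), with 79.6 and 101 CPM in Ctrl and 74.9 and 165 CPM in KO. KO 1 was the lowest of the 4 libraries in this peak and KO 2 the highest. An intronic peak about 26.9 kb inside the gene (27701289 to 27705393) had 25.8 and 45.2 CPM in Ctrl and 41.7 and 69.7 CPM in KO, which overlapped (log2 fold change 0.64, SE 0.31, unadjusted p = 0.0404). Near the end of the gene a narrow intronic peak (27756829 to 27757327) had 7.24 and 6.25 CPM in Ctrl against 0.373 and 3.12 CPM in KO, or 16 and 21 counts against 1 and 13, with both KO libraries below both Ctrl libraries (log2 fold change -1.82, SE 0.83, unadjusted p = 0.0291). These were the only peaks of the 37 tested with an unadjusted p under 0.05 in the edgeR quasi-likelihood test, and neither passed the adjustment (adjusted p = 0.998 for both). The 5 promoter peaks had 0.745 to 17.0 CPM. The locus level was 389 and 552 CPM in Ctrl and 396 and 725 CPM in KO, so that KO 1 stood with Ctrl 1, and the replicates of the KO differed by 0.87 on the log2 scale against a log2 fold change of 0.25 (SE 0.30).

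**Figure D3:**
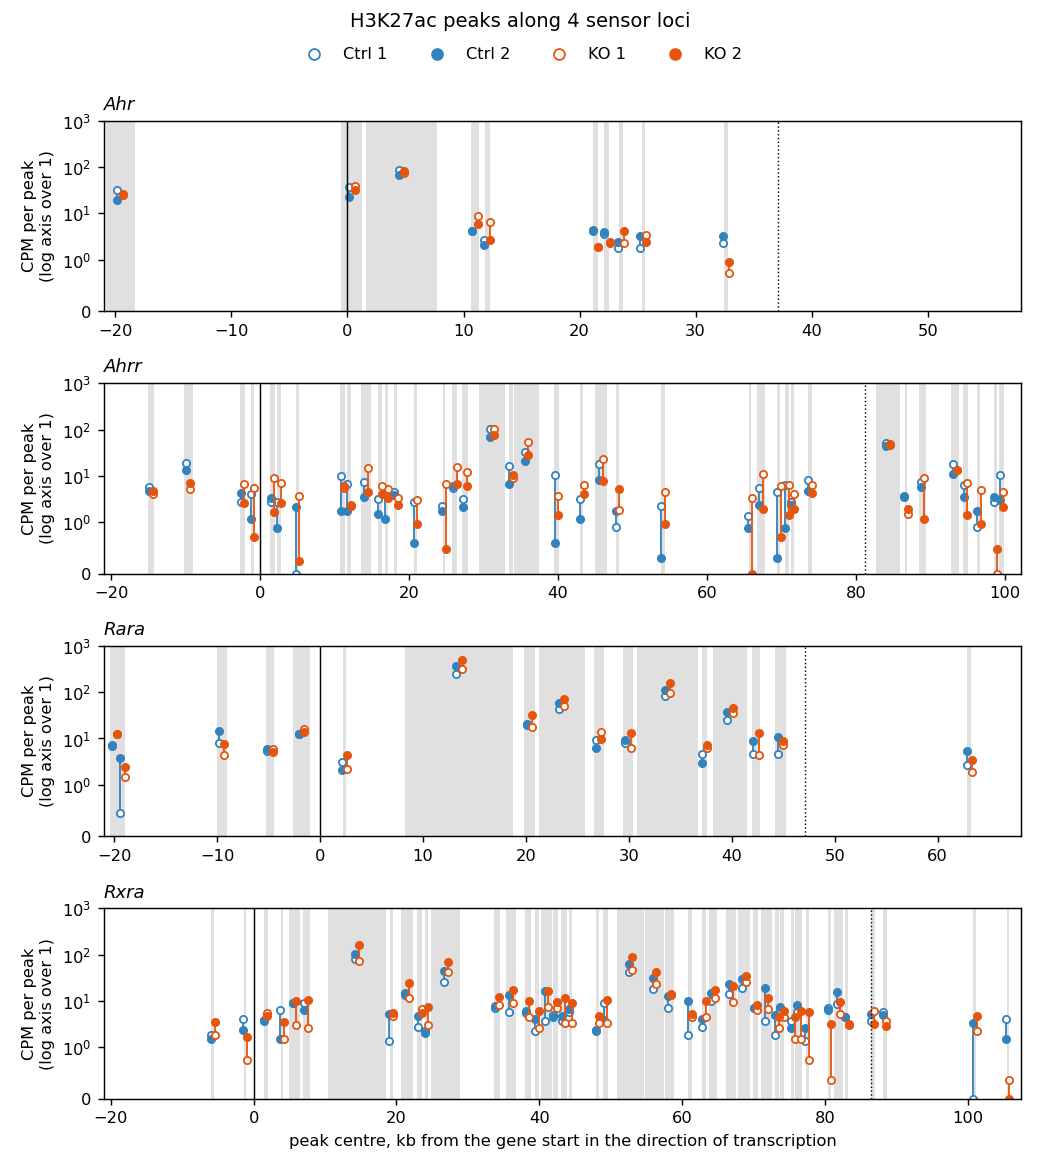
H3K27ac peaks along 4 of the loci, with the CPM of each peak (log axis over 1 CPM) against the distance of its centre from the gene start in kb. Open and filled points are the first and second library of a genotype, grey bars give the peak widths, and the solid and dotted vertical lines mark the start and end of the gene. Ahr and Rara have their highest peaks near or over a start, while those of Ahrr and Rxra lie about 31.2 and 14.5 kb inside the gene.

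Vdr, the vitamin D receptor (chromosome 15, 97854425 to 97910630, minus strand), was weakly marked at its own starts. The peak over a start (97907246 to 97908325) had 5.88 and 7.44 CPM in Ctrl and 8.20 and 8.63 CPM in KO, or 13 to 36 counts, and the other promoter peak (97897616 to 97897929) had at most 3.35 CPM and was not tested. Most counts of the window, 78.5 to 87.1%, came from the flank downstream of the gene, which runs into the neighbour Hdac7, a class IIa histone deacetylase. The highest peak of the window (97836127 to 97838547) lay inside Hdac7 and had 35.7 and 36.0 CPM in Ctrl and 34.3 and 44.6 CPM in KO. A peak at an Hdac7 start (97841950 to 97845109) had 19.0 and 33.9 CPM in Ctrl and 35.4 and 43.6 CPM in KO, and KO 1 lay just above Ctrl 2 (log2 fold change 0.56, SE 0.34, unadjusted p = 0.0950). The window as a whole had 118 and 139 CPM in Ctrl and 139.0 and 173 CPM in KO, with a log2 fold change of 0.28 (SE 0.24), and the gap between Ctrl 2 and KO 1 was narrow. Its KO libraries were both higher than its Ctrl libraries, but the counts at the starts of Vdr were a small share of the window.

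Nr3c1, the glucocorticoid receptor (chromosome 18, 39410545 to 39519421, minus strand), had 13 peaks, 7 of them at its starts. The peak over the upstream start (39518024 to 39520789) was the highest, with 55.2 and 56.5 CPM in Ctrl and 54.8 and 80.0 CPM in KO. KO 2 alone stood above the other libraries. Around the starts about 27.9 to 34.2 kb inside the gene the largest peak (39491034 to 39491937) had 26.2 and 14.0 CPM in Ctrl and 34.7 and 27.6 CPM in KO, without overlap, and it had the smallest p of the locus (log2 fold change 0.65, SE 0.37, unadjusted p = 0.0799). A peak about 2.98 kb inside the gene (39515760 to 39517119) had 16.3 and 8.93 CPM in Ctrl and 8.57 and 8.63 CPM in KO. The other 4 promoter peaks had 0.240 to 14.5 CPM. Counts of 339 to 682 gave locus levels of 153 and 134 CPM in Ctrl and 146 and 163 CPM in KO, which overlapped (log2 fold change 0.11, SE 0.23).

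Nr1h2, the oxysterol receptor LXR beta (chromosome 7, 44549616 to 44553951, minus strand), was the only member with a negative log2 fold change. Its peak over the start (44552548 to 44554317) had 24.4 and 31.6 CPM in Ctrl and 24.2 and 27.8 CPM in KO. The highest peak of the window (44548546 to 44551956) lay within 3 kb of a start of Nr1h2 and also of Pold1, the catalytic subunit of DNA polymerase delta, and had 39.4 and 40.2 CPM in Ctrl and 28.7 and 36.7 CPM in KO, with both KO libraries lower. The smallest p was that of a peak inside Pold1 (44538005 to 44539770), with 12.7 and 21.7 CPM in Ctrl and 5.59 and 14.4 CPM in KO (log2 fold change -0.76, SE 0.46, unadjusted p = 0.0960). The neighbours Spib and Napsa also had weak peaks near their starts, of at most 5.75 CPM. The window summed to 109 and 152 CPM in Ctrl and 85.0 and 118 CPM in KO, a log2 fold change of -0.36 (SE 0.28), and KO 2 lay above Ctrl 1, so that the genotypes overlapped. Of its 9 tested peaks 8 had a negative log2 fold change.

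Ffar2, the short-chain fatty acid receptor (chromosome 7, 30818348 to 30823775, minus strand), had no peak at its starts or in the gene. A single peak downstream (30811617 to 30812413), about 11.8 kb from the gene start, held 6 and 14 counts for Ctrl against 17 and 31 for KO, or 2.715 and 4.17 CPM against 6.33 and 7.43 CPM. The KO libraries were thus the highest, without overlap, and the log2 fold change of the locus was 0.98 with an SE of 0.85 (unadjusted p = 0.279). The related receptor loci Ffar1 and Ffar3, which share their peaks with each other, had 9.50 and 7.44 CPM in Ctrl and 10.8 and 4.07 CPM in KO. Precision is lowest here, since few counts support each value.

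Of the 9 loci, none was called between KO and Ctrl in the edgeR quasi-likelihood test after adjustment over 16083 loci, and the same was true of all other loci (0% of loci called). This fit had genotype as its only term. A fit with the replicate number as a block called other numbers of loci and is described at the end. With 2 libraries of pooled mice per genotype, p-values rest only on the spread between these libraries. The edgeR fit estimates that spread partly or wholly from all tested peaks or loci together, not from each one alone. In cells sorted in bulk, a smaller share of cells carrying the mark and less of the mark per cell cannot be told apart. No member had an unadjusted p under 0.05, against 2.54% of all loci, and DESeq2 called no member either and gave none an unadjusted p under 0.05. The smallest unadjusted p were 0.217 for Rara, 0.224 for Nr1h2 and 0.272 for Vdr. The log2 fold change was above 0 at 8 members and below 0 at 1, with a median of 0.14 against -0.0057 over all loci tested. This count rested on single libraries, since 5 were higher and 4 lower without Ctrl 2, and 4 were higher and 5 lower without KO 2. Both KO libraries were above both Ctrl libraries at 2 of the 9 members, Vdr and Ffar2, against 11.9% of all loci, and both were below at 0 members, against 16.8% of all loci. At Ahrr, Tiparp, Rara, Rxra, Nr3c1 and Nr1h2 the 2 libraries of the same genotype differed, in Ctrl and in KO, by more than the log2 fold change between genotypes, as they did over all loci, where the median absolute log2 difference was 0.36 within Ctrl, 0.35 within KO and 0.21 between the genotypes. The former compares single libraries and the latter groups of 2, so the former is wider even without any difference between genotypes. At Ahrr, Rara, Rxra and Nr1h2 the gap had the same direction in Ctrl and in KO.

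**Figure D4:**
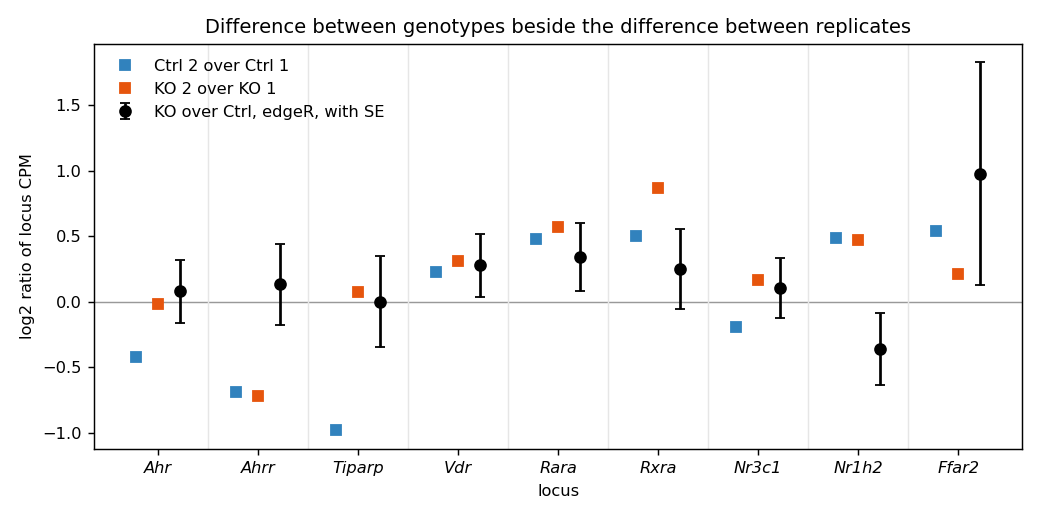
Log2 ratios of locus CPM for the 9 sensor loci. Squares give the second over the first library within Ctrl and within KO. Black points give KO over Ctrl with an SE derived from the edgeR test. At Rara, Rxra, Nr1h2, Vdr and Ffar2 the second library was higher in both genotypes. The first was higher in both at Ahrr and, only just in KO, at Ahr. The widest SE is that of Ffar2 (0.85).

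Of the 156 peaks at the 9 loci, 121 had at least 10 counts in at least 2 libraries and were tested. None was called by the edgeR quasi-likelihood test with Benjamini-Hochberg adjustment, against 0.00134% of all tested peaks (1 of 74550), and DESeq2 called none. An unadjusted p under 0.05 was reached by 4 member peaks, 2 higher and 2 lower in KO, against 4.24% of all tested peaks, and by 1 higher and 1 lower in DESeq2. These 4 peaks, described above, lay at Ahrr and Rxra, the loci with the most peaks tested. The log2 fold change was above 0 in 72 tested peaks and below 0 in 49, with a median of 0.18 against -0.012 over all tested peaks, but without KO 2 it was above 0 in 39 and below 0 in 56, with a median of -0.09. The genotypes did not overlap in 23 peaks that were higher in KO and 14 that were lower, against 33.3% of all tested peaks in either direction. Per locus the median log2 fold change of tested peaks ranged from -0.45 at Nr1h2 and -0.24 at Nr3c1 to 0.30 at Vdr and Rara, apart from the single peak of Ffar2.

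**Figure D5:**
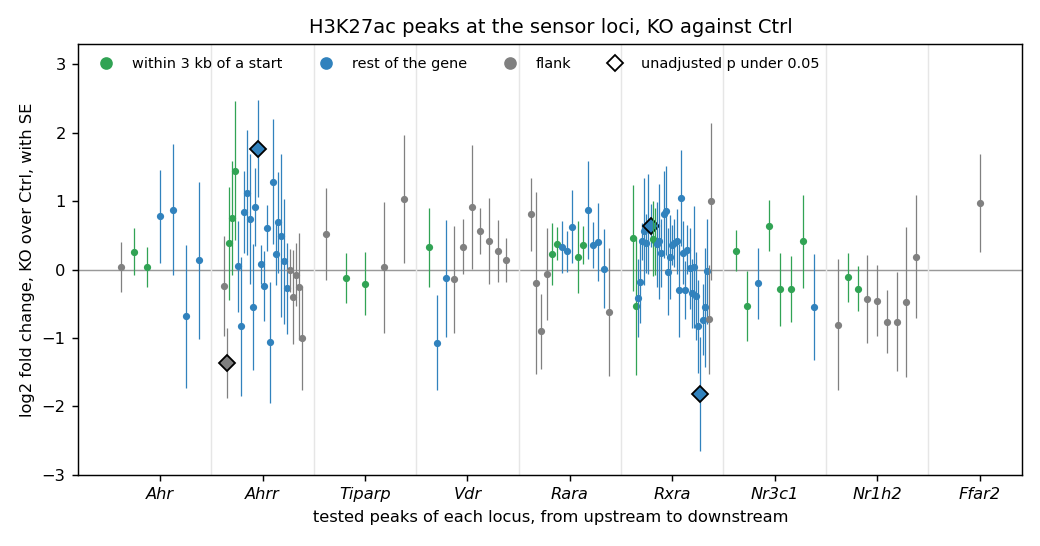
Log2 fold change, KO over Ctrl, with its SE for each of the 121 tested peaks at the sensor loci, ordered from upstream to downstream within each locus and coloured by position. Diamonds mark the 4 peaks with an unadjusted p under 0.05, 2 at Ahrr and 2 at Rxra, and the values run from -1.82 to 1.77.

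The other genes of these sensing pathways, 60 partners, chaperones, targets, ligand-making enzymes and related receptors, gave 52 tested loci, of which 29 had a positive and 23 a negative log2 fold change, with a median of 0.04. With library totals in place of TMM the split was 24 and 28 and the median -0.04. The median over all loci tested moved as well, from -0.0057 to -0.083, so that the balance around 0 depended on the scaling. None was called by edgeR or DESeq2 after adjustment. An unadjusted p under 0.05 was reached by 1 of the 52 tested loci in either tool, lower in KO. Over all loci tested in edgeR the share was 2.54%, so this count is not a result about the pathways. In edgeR this was Cyp27a1, the mitochondrial sterol hydroxylase of vitamin D and bile acid synthesis, with 16.3 and 23.8 CPM in Ctrl and 5.22 and 9.11 CPM in KO (log2 fold change -1.47, SE 0.57, unadjusted p = 0.0285). All 4 tested genes of vitamin D metabolism had a negative log2 fold change, with a median of -0.43. Over all loci tested, 8149 of 16083 were negative, and the sign count of these 4 genes was not tested. The highest of the 4 per kb was Cyp27b1, the activating hydroxylase, with 99.1 and 60.4 CPM in Ctrl and 63.3 and 45.0 CPM in KO.

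Among the AHR genes 8 of 10 had a positive log2 fold change, with a median of 0.14. Cyp1a1, the classical target gene, had 18.6 and 26.8 CPM in Ctrl and 24.6 and 23.5 CPM in KO. In the retinoid list 3 of 10 tested loci had a positive value (median -0.14) and Rarg was the highest at 5.59 CPM per kb, while 2 genes of retinoic acid breakdown, Cyp26a1 and Cyp26b1, had no peak. For metabolite receptors and transporters 2 of 6 were positive (median -0.07), led in level by Gpr65 at 3.43 CPM per kb. The glucocorticoid list had 6 of 8 positive (median 0.11), with Dusp1, a target of the receptor, highest at 6.26 CPM per kb, and the sterol and bile acid list 10 of 14 (median 0.12), with the bile acid receptor Gpbar1 highest at 6.82 CPM per kb. None of these values passed the test. The windows of the pathway genes include the 20 kb flanks and can hold peaks of neighbours. Most of the 41.1 kb window of Gpbar1 is flank, so its level need not be that of the gene itself. Without peaks at other genes' starts 43 pathway loci could be tested, 25 with a positive and 18 with a negative log2 fold change.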

How the data were processed

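H3K27ac CUT&Tag libraries of sorted large intestinal Treg cells were compared between Ctrl and KO mice. According to the study's methods, reads were mapped to mm10 with Bowtie2, uniquely mapped and deduplicated reads were kept, peaks were called with MACS2 against IgG, and peaks were merged across libraries. The deposited table holds raw counts per merged peak, and whether both mates of a pair were counted is not given in the sources used here. Starts were shifted to 1-based positions. Peaks, or peaks summed over each gene span extended 20 kb, with at least 10 counts in 2 libraries entered edgeR 4.0.16 (glmQLFit and glmQLFTest, TMM, R 4.3.3) with genotype as the only term, and p-values were adjusted by Benjamini-Hochberg over all 74550 peaks or 16083 loci. The SE is that of the log2 fold change, derived as its absolute value over the square root of the F statistic of the edgeR test. An exact permutation test of 2 against 2 libraries cannot go below p = 0.333 and was not used. The steps were tested on simulated data.

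All members were named, with their promoter peaks, highest peak and the peaks with an unadjusted p under 0.05 or else the smallest, neighbours with a start within 3 kb of a peak, pathway genes with an unadjusted p under 0.05 and the highest per list (1 is not reported here), and the 3 loci most like Ahr. The Cyp26 genes, Cyp1a1, Ffar1 and Ffar3 were named after their values were seen. Members and lists were chosen with earlier results of these data known. Alternatives were DESeq2 1.42.0, other scalings, filters and windows, halved counts, a replicate block and leaving out each library. The IgG library was not analysed here.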

Additional observations from a re-analysis of the deposited data

How the results depend on the processing

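No member peak, member locus or pathway locus was called under DESeq2, another scaling, filter or window, halved counts, or without any 1 library. The study's methods state that the Ctrl and KO mice were littermates. The labels do not tie the replicate numbers to a shared litter or day, so whether same-numbered libraries are pairs is not known. Deviations of same-numbered libraries correlated with r = 0.253 over 74550 peaks. With the replicate number as a block, 1 member locus (Rara, log2 fold change 0.34, adjusted p = 0.000488), 7 pathway loci and 0 member peaks were called by edgeR. That fit also called 828 loci higher and 801 lower among all loci, against 0 without the block.

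The sign of small locus differences depended on the setting. Tiparp, at 0.0021 in the main test, was -0.0077 with DESeq2, -0.0036 with its size factors, -0.077 with total counts, -0.066 with halved counts, -0.16 over the span alone and -0.15 over promoter peaks. At a minimum of 50 counts, where the median of all loci moved to -0.12, Tiparp was -0.12, Ahr -0.034 and Nr3c1 -0.013. Ahrr was -0.014 with 50 kb flanks. Member loci above and below 0 numbered 7 and 2 with DESeq2, its size factors or total counts, and 4 and 4 at 50 counts. Leaving out 1 library gave -0.11 to 0.30 for Ahr, -0.29 to 0.51 for Ahrr, -0.42 to 0.56 for Tiparp, -0.0090 to 0.61 for Rara, -0.28 to 0.61 for Rxra and -0.0096 to 0.20 for Nr3c1. The lone library of a group is then assumed to vary like the other. Vdr, Ffar2 and Nr1h2 kept their sign, but Vdr fell from 0.28 to 0.0093 over the span alone, Ffar2 from 0.98 to 0.086 with 50 kb flanks and Nr1h2 reached -0.21 over the span, and leaving out 1 library gave 0.080 to 0.41, 0.71 to 1.34 and -0.65 to -0.085. Ffar2 had too few counts to enter under the 50-count minimum, halved counts, span or promoter settings. The cause of these shifts was not tested. Depth limits the narrow peaks most, and 35 of the 156 member peaks were too low to test.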
